A study of Mus musculus with 30 samples.

Results

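The nuclear-encoded subunits of the oxidative phosphorylation complexes were taken as every gene of the expression table whose symbol names a subunit of complex I (Ndufa, Ndufb, Ndufc, Ndufs and Ndufv genes), complex II (Sdh), complex III (Uqcr genes and Cyc1), complex IV (Cox4 to Cox8 genes) or complex V (Atp5 genes). The rule found 79 of the 11137 genes in the table, of which 37 belonged to complex I, 3 to complex II, 9 to complex III, 13 to complex IV and 17 to complex V. By its symbol the rule also took in Cox7c-ps1, a processed pseudogene with no annotated coding sequence, which is counted with complex IV throughout. Their levels are given here in sorted luminal and basal cells of the mouse mammary gland, in virgin and parous animals, with and without deletion of Rank in luminal cells.

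Luminal cells line the mammary ducts and alveoli, and basal cells form the contractile layer around them. Control mice, called K8imTmG, carried the alleles K8rta, TETO CRE and mTmG, and K8iΔRank mice carried RANK fl/fl as well. The Krt8 promoter drove the transactivator, so Cre was directed to luminal cells and basal cells of K8iΔRank mice kept the intact allele. Mice of both genotypes drank doxycycline at 1 mg/ml between weeks 3 and 8 of age, by the sample records. Parous mice had gone through a pregnancy and a period of involution and were matched in age to virgin mice. By the study's methods, control mothers nursed until their pups were removed and then went through involution. K8iΔRank mothers failed to lactate and were left for the same number of days to simulate involution. Lactation history thus differed between parous mice of the genotypes. Luminal libraries numbered 3 from virgin K8imTmG, 3 from virgin K8iΔRank, 5 from parous K8imTmG and 4 from parous K8iΔRank mice. Basal libraries numbered 3, 4, 4 and 4 in the same order. Each library came from the cells of a single animal, and 13 of the 17 mice gave both a luminal and a basal library.

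Complexes I and II pass electrons from NADH and succinate to ubiquinone, complex III passes them on to cytochrome c, and complex IV passes them to oxygen. Complexes I, III and IV pump protons across the inner mitochondrial membrane, and complex V, the ATP synthase, makes ATP from the returning flow. Most subunits are encoded in the nucleus, while core subunits of complexes I, III, IV and V are encoded in mitochondrial DNA, and complex II has nuclear subunits only. Transcription of the nuclear genes is known to depend in part on the nuclear respiratory factor NRF1.

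The recognition letters of NRF1, those in capitals in the sequences printed next, read the same on both strands and were searched from 250 bases before to 50 bases after the start of each gene's canonical transcript, which need not be the outermost start of the gene. They were found in 4 of the 77 members that could be matched to the annotation (5.19%), against 1.79% of the 10992 genes of the table with such a window. The ETS letters CCGGAAG were found on either strand in 14.3% of the members and 15.6% of all windows, and the YY1 letters AAGATGG in 11.7% and 6.63%. Each motif was counted on its own, and a match describes the letters only. The 4 windows with the NRF1 letters are shown because they fall in 3 different complexes, with the motif in capitals, each on the minus strand of GRCm39 and written 5′ to 3′.
Atp5g2 (chr15:102579513-102579542), complex V: gactcgttggctccggccGCGCATGCGCag
Atp5k (chr5:108582296-108582325), complex V: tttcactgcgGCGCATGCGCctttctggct
Cox6a1 (chr5:115487160-115487189), complex IV: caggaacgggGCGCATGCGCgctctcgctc
Ndufa13 (chr8:70355971-70356000), complex I: aatcgaggatGCGCATGCGCtctccagcaa
With the Clec2d side of a library in the fit (the split is described next), Cox6a1 and Ndufa13 were higher in luminal than in basal cells and Atp5g2 and Atp5k were not called.

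Levels were measured by 3′ tag sequencing, in which each read comes from near the polyadenylated end of a transcript, as normalized counts of unique molecules. Libraries held between 340445 and 3130419 molecules (median 1853588). The sorted lineages carried their markers: Krt8 ranged from 994 to 3134 in luminal and from 201 to 664 in basal libraries, and Krt5 from 2.46 to 17.7 and from 811 to 1463. Summed markers of endothelial cells (3 of 3 genes in the table) ranged from 3.36 to 35.9 in luminal and from 33.5 to 624 in basal libraries, and those of fibroblasts (3 of 3 genes) from 11.0 to 110 and from 61.5 to 404. Markers of immune cells, adipocytes and muscle were not analysed here. The targeted gene, Tnfrsf11a, overlapped between the genotypes in luminal cells. It ranged from 11.5 to 23.8 (median 18.9) in K8iΔRank and from 9.57 to 18.6 (median 14.2) in K8imTmG libraries of virgin mice, and from 27.0 to 41.1 (median 33.3) and from 12.8 to 64.9 (median 49.3) in parous mice. Tags at the 3′ end need not show the loss of an internal exon, so these values do not check the deletion. In 14 libraries Clec2d lay between 65.6 and 199, and in the other 16 between 0.641 and 8.68. Libraries above 30 are called Clec2d-high and the rest Clec2d-low, and the split crossed the groups unevenly. Luminal libraries of virgin K8iΔRank mice and basal libraries of virgin and parous K8imTmG mice were all Clec2d-high. Luminal libraries of virgin K8imTmG and parous K8iΔRank mice and basal libraries of virgin K8iΔRank mice were all Clec2d-low. Luminal libraries of parous K8imTmG mice (2 high, 3 low) and basal libraries of parous K8iΔRank mice (2 high, 2 low) were mixed.

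By mean normalized count over the 30 libraries, Cox6c (1432, from 551 to 3301), Atp5g3 (1219, from 83.1 to 2870) and Cox8a (1099, from 376 to 2442) were the highest members, and Ndufa8 (47.0), Cox7c-ps1 (25.8) and Cox6b2 (8.55) the lowest. The share of all subunits followed the Clec2d split in both lineages. In luminal cells the 79 members together took 1.97 to 2.39% of the molecules (median 2.20%) in 5 Clec2d-high libraries and 1.29 to 1.61% (median 1.497%) in 10 Clec2d-low libraries. In basal cells they took 1.504 to 2.09% (median 1.81%) in 9 Clec2d-high libraries and 0.888 to 1.18% (median 1.10%) in 6 Clec2d-low libraries. Within each lineage the high and low libraries did not overlap in this share. Luminal and basal libraries overlapped on the high side, and every luminal library stood above every basal library on the low side. Depth differed as well: luminal Clec2d-high libraries held 534445 to 1158036 molecules and luminal Clec2d-low libraries 1862812 to 3130419, while basal libraries held 340445 to 2677273 and 1200781 to 2996649. The part of depth in the share was not tested. In bulk RNA of sorted cells, fewer cells of a type and less RNA per cell cannot be told apart.

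**Figure D1:**
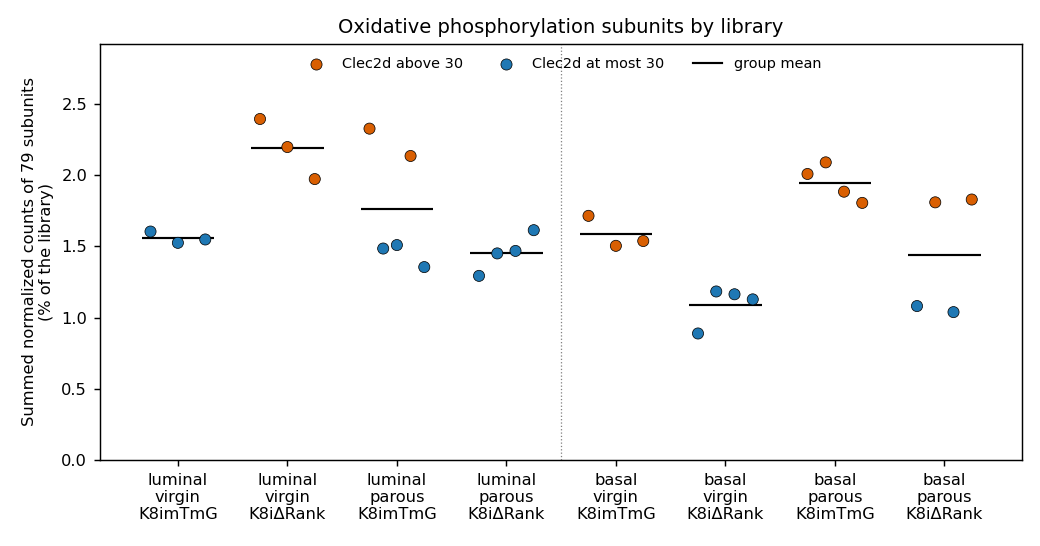
Share of each library's molecules taken by the 79 oxidative phosphorylation subunits (y axis, percent) in the 8 groups of lineage, stage and genotype (x axis), each point a library, coloured by Clec2d side, with a line at the group mean. Clec2d-high libraries lie between 1.97 and 2.39% in luminal and between 1.504 and 2.09% in basal cells, above the Clec2d-low libraries of the same lineage, which reach 1.61 and 1.18%.

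By complex, the split was wide for complex IV and nearly absent for complex II. The mean log2 level of the 13 complex IV members had a median of 8.57 in luminal Clec2d-high and 7.62 in luminal Clec2d-low libraries, and of 8.46 and 7.16 in basal libraries. The 3 complex II members (Sdha, the flavoprotein, Sdhb, the iron-sulphur protein, and Sdhc, a membrane anchor) stood at 7.44 and 7.49 in luminal and at 7.42 and 7.34 in basal libraries. Complexes I, III and V lay between these, with medians of 7.77 and 7.16, 8.10 and 7.43, and 8.93 and 8.06 in luminal cells. All luminal Clec2d-high libraries stood above all luminal Clec2d-low libraries in 28 of the 79 members, and all stood below in 3 (Ndufa10, Ndufs8 and Uqcrc1). In basal cells 36 members separated upward and 0 downward. The share of all genes that separate in this way was not counted, so these counts describe the members only.

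The 2 mixed groups allow the split to be read with lineage, stage and genotype held fixed. In luminal cells of parous K8imTmG mice (2 high against 3 low libraries) 63 of 79 members were higher on the high side, with a median log2 difference of 0.73. In basal cells of parous K8iΔRank mice (2 against 2) 73 of 79 were higher, with a median of 0.75. Over all genes of the table the medians were -0.04 and -0.00. These differences have no test here, since the split was drawn from measured values.

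Cox7c, a small subunit of complex IV on mouse chromosome 13 (GRCm39, 86189246 to 86195023), differed most. It measured 1151 and 1505 in the high and 183, 183 and 211 in the low luminal libraries of parous K8imTmG mice. In basal libraries of parous K8iΔRank mice it measured 720 and 690 on the high side and 75.9 and 80.6 on the low side. The mean log2 differences were 2.77 and 3.15. A processed pseudogene, Cox7c-ps1, is listed beside it and followed it with 1.99 and 1.27, and reads of such near-identical copies may have been divided between them. Ndufb4, an accessory subunit of complex I, showed 329 and 476 against 53.2, 59.6 and 64.0 in the luminal group. In the basal group it showed 264 and 171 against 37.7 and 53.3. It had been chosen for naming as a gene of the Clec2d split, so its values illustrate the split and do not test it. Ndufa10, an accessory subunit of complex I with a long transcript, went the other way, with 58.8 and 63.9 against 227, 207 and 186 in the luminal group and 65.4 and 70.9 against 132 and 145 in the basal group.

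The size of the split followed the coding length of the members. Across 76 members with an annotated coding sequence, Spearman's rho between coding length and the high-minus-low difference was -0.70 in the luminal and -0.69 in the basal mixed group. Across 10493 genes of the table it was -0.21 and -0.28. With transcript length in place of coding length, rho was weaker in the members, at -0.44 and -0.41 across 77 of them. Across 10993 genes it was -0.18 and -0.25. The genes of a correlation share their libraries and are not replicates, so no p is given. The 26 members of 156 to 348 coding nucleotides had median differences of 1.32 and 1.26, the 25 members of 354 to 525 nucleotides 0.73 and 0.72, and the 25 members of 528 to 2181 nucleotides -0.06 and 0.22. Members have short transcripts as a set, with a median transcript length of 990 nucleotides against 3492 over the table. The median was 658 in complex IV and 3209 in complex II, the complexes with the wide and the narrow split.

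**Figure D2:**
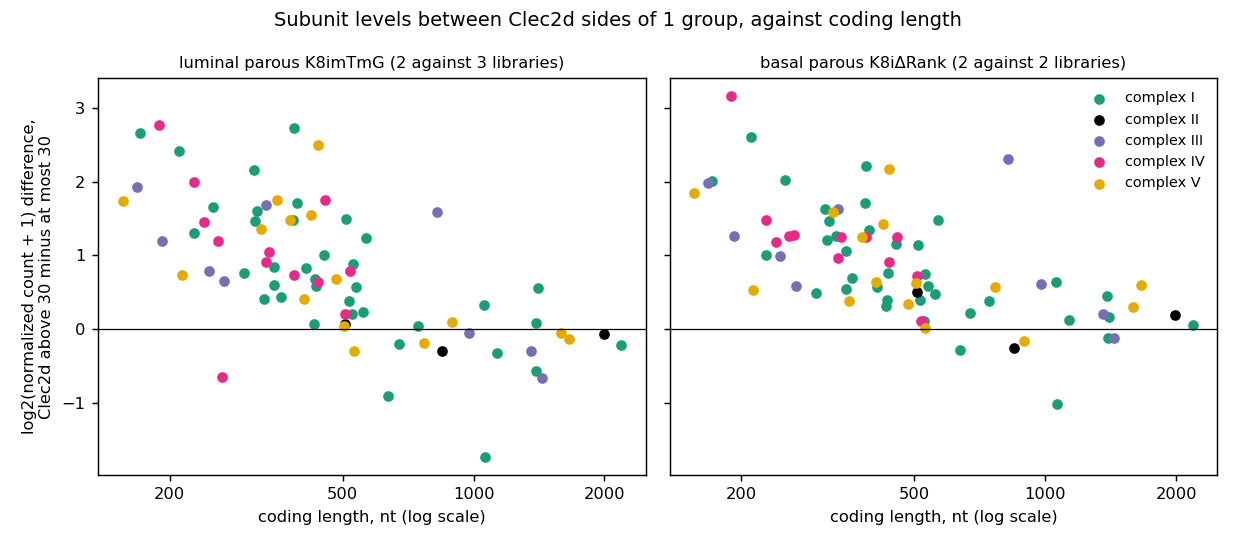
Difference of the Clec2d-high from the Clec2d-low libraries within a group (y axis, log2) against coding length (x axis, nucleotides, log scale) for each of 76 members, in luminal cells of parous K8imTmG mice and basal cells of parous K8iΔRank mice, coloured by complex. Short members mostly lie above 0 and long members mostly near 0, with rho of -0.70 and -0.69, and Cox7c stands at 2.77 and 3.15.

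The comparison of the lineages asks whether luminal and basal cells differ in these subunits. Over all 30 libraries, 27 of the 79 members were called (limma, Benjamini-Hochberg adjusted p below 0.05 over all genes tested), 22 higher and 5 lower in luminal cells. This share, 34.2%, stood beside 55.7% of all genes tested (28.7% higher and 27.0% lower). The median log2 difference of the members was 0.16, against 0.04 over all genes. The split weighed unequally on the lineages, with 5 of 15 luminal and 9 of 15 basal libraries Clec2d-high, so that the comparison set more high libraries on the basal side. With the Clec2d side as a term, 42 members were higher and 2 lower in luminal cells, beside 51.8% of all genes (26.4% higher and 25.5% lower), the median was 0.36 and 71 of 79 differences were positive. Among Clec2d-high libraries 18 members were higher and 1 lower, beside 36.2% of all genes (16.6% higher and 19.6% lower). Among Clec2d-low libraries 46 of 78 were higher and 0 lower, beside 44.6% of all genes (22.2% higher and 22.4% lower). The medians were 0.26 and 0.49, and 69 of 79 and 75 of 78 differences were positive. In the fits within a side, lineage was not set apart from genotype and stage. Basal Clec2d-low libraries were all K8iΔRank, while luminal ones held both genotypes. Basal Clec2d-high libraries were mostly K8imTmG, and luminal ones were virgin K8iΔRank and parous K8imTmG. The part of genotype and stage in these differences was not tested. Each side held 1 condition with both lineages. In parous K8iΔRank mice, low side, the members took 1.29 to 1.61% in 4 luminal and 1.04 and 1.08% in 2 basal libraries. In parous K8imTmG mice, high side, they took 2.13 and 2.33% in 2 luminal and 1.81 to 2.09% in 4 basal libraries. These shares were not tested. Without the mouse as a block, the side term was estimated from the 2 mixed groups only. With the mouse as a block and the side as a term, 36 were higher and 2 lower, beside 45.2%, with a median of 0.33. With the mouse as a block and no side term, 19 were higher and 7 lower and the median was 0.05. The share of all genes is not given for that fit, so its counts describe the members only. In the separate stages and genotypes the median luminal-minus-basal difference was 1.05 in virgin K8iΔRank mice, where the luminal libraries were high and the basal ones low, and -0.11 in virgin K8imTmG mice, where the sides were exchanged. It was -0.38 in parous K8imTmG and 0.02 in parous K8iΔRank mice.

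**Figure D3:**
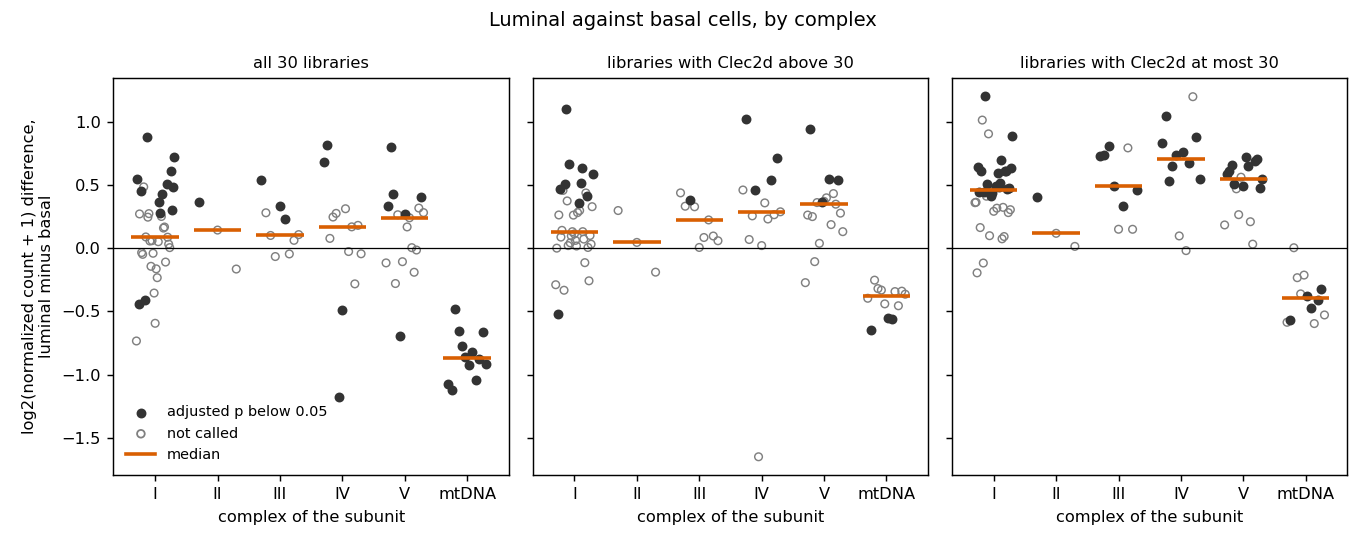
Luminal-minus-basal log2 difference (y axis) of each subunit by complex and for subunits encoded in mitochondrial DNA (x axis), in all libraries, in Clec2d-high libraries and in Clec2d-low libraries. Each point is a gene, filled where the limma adjusted p was below 0.05, with the median in orange. Nuclear subunits lie mostly above 0 on both sides (medians 0.26 and 0.49), and mitochondrially encoded subunits below it (-0.38 and -0.39).

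By complex, with the side as a term, 17 of 37 members of complex I were higher and 1 lower in luminal cells, 1 of 3 of complex II, 6 of 9 of complex III, 9 of 13 of complex IV with 1 lower, and 9 of 17 of complex V. The medians were 0.33, 0.06, 0.39, 0.53 and 0.36. In the fit without the term the counts were 11 and 2, 1 and 0, 3 and 0, 2 and 2, and 5 and 1, higher and lower. The members of complex IV called with the term only were Cox5b, Cox6a1, Cox6b1, Cox7a2, Cox7b, the pseudogene Cox7c-ps1 and Cox8a.

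In complex I, Ndufa7, an accessory subunit (chromosome 17, 34043537 to 34057291), had the lowest adjusted p of all members with the side as a term. It ranged from 547 to 752 (median 697) in 5 luminal and from 282 to 348 (median 326) in 9 basal Clec2d-high libraries. On the low side it ranged from 240.5 to 556 (median 324) in 10 luminal and from 108 to 179 (median 145) in 6 basal libraries. Luminal and basal libraries did not overlap on either side, while over all 30 libraries they did. The log2 difference was 0.88 (SE 0.17, limma adjusted p = 5.2e-05) over all libraries and 1.25 (SE 0.10, adjusted p = 3.04e-11) with the side as a term. Ndufv3, an accessory subunit of the NADH-binding module, ranged from 55.2 to 123 in luminal and from 35.9 to 103 in basal libraries and differed by 0.72 (adjusted p = 5.12e-06), and by 0.82 (adjusted p = 1.66e-06) with the term. Ndufc2, Ndufb8 and Ndufa13 were higher in luminal cells by 0.43, 0.37 and 0.46 over all libraries and by 0.58, 0.46 and 0.61 with the term. Ndufs4 (0.51, adjusted p = 0.000172) and Ndufv2 (0.48, adjusted p = 0.000375) were also among the calls over all libraries. Among core electron-transfer subunits, Ndufs8 (0.61 over all libraries, 0.44 with the term) and Ndufv2 (0.54 with the term) were called higher in both fits. Ndufv1, Ndufs1 and Ndufs7 were not called with the term, with differences of 0.20, 0.13 and 0.00, nor was Ndufa9, which stands near the ubiquinone site (0.24). Ndufa11, which joins the membrane arm, was lower in luminal cells by 0.44 (adjusted p = 0.000674) and by 0.39 with the term (adjusted p = 0.00473). It ranged from 109 to 208 in luminal and from 143 to 326 in basal libraries, and on the low side alone the difference of -0.20 was not called (adjusted p = 0.354).

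In complex II, Sdha ranged from 262 to 404 in luminal and from 206 to 307 in basal libraries and was higher in luminal cells by 0.37 (SE 0.07, limma adjusted p = 9.98e-05), and by 0.38 with the side as a term. Sdhb (0.06 with the term) and Sdhc (-0.09) were not called. In complex III, Cyc1, the cytochrome that donates electrons to cytochrome c, was higher by 0.54 (adjusted p = 0.00334) and by 0.61 with the term. Uqcrc1, a core protein of complex III, was higher by 0.33 over all libraries (adjusted p = 0.0202), and the call was lost with the term (0.22, adjusted p = 0.15), as were those of Uqcrc2, Ndufa10 and Ndufv1. The Rieske iron-sulphur protein Uqcrfs1 differed by -0.05 and by 0.48 with the term and was called in neither.

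In complex IV, Cox5a (chromosome 9, 57428456 to 57440678) ranged from 454 to 713 (median 489) in luminal and from 125 to 484 (median 271) in basal Clec2d-high libraries. On the low side it ranged from 224 to 443 (median 287) and from 93.5 to 196 (median 148). The lineages overlapped on the high side and did not on the low side. It was higher in luminal cells by 0.82 (SE 0.16, adjusted p = 6.12e-05), and by 1.03 (SE 0.15, adjusted p = 1.54e-06) with the side as a term. Cox4i1, a regulatory subunit, was higher by 0.68 (adjusted p = 1.88e-05) and by 0.80 (adjusted p = 2.81e-06) with the term. Among genes with tissue isoforms, Cox6a1, Cox6b1, Cox7a2 and Cox8a were called higher in luminal cells with the term (0.50, 0.61, 0.63 and 0.37) and not over all libraries (0.25, 0.27, 0.31 and -0.04). Cox7a2l, which takes part in supercomplexes, was not called in either fit (-0.03 and 0.11). Ndufa4, named for complex I and now placed with complex IV, differed by 0.48 and 0.70 and was not called.

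Cox6b2, known as the testis isoform of Cox6b, was the member with the lowest mean level, 8.55 normalized counts. It ranged from 0 to 12.6 (median 3.48) in 15 luminal and from 0 to 34.1 (median 10.7) in 15 basal libraries. The groups overlapped, and the difference was -1.17 (SE 0.36, limma adjusted p = 0.00719), and -1.11 (adjusted p = 0.0245) with the term. Its counts lie near the level of a few molecules in shallow libraries, where a molecule is worth up to 5.43 normalized counts, and with Clec2d-low libraries alone it did not pass the filter on low values.

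In complex V, Atp5c1, the central stalk subunit (chromosome 2, 10060827 to 10085350), was higher in luminal cells with little effect of the split. It ranged from 252 to 288 (median 267) in luminal and from 103 to 168 (median 136) in basal Clec2d-high libraries, and from 188 to 307 (median 245) and from 104 to 221 (median 172) on the low side. The difference was 0.80 (SE 0.10, adjusted p = 1.41e-07) over all libraries and 0.79 (adjusted p = 1.08e-06) with the term. Of the catalytic head, Atp5b was higher by 0.33 and by 0.36 with the term, and Atp5a1 was not called (-0.12 and -0.06). Atp5o, the peripheral stalk subunit, was higher by 0.40 and 0.36. The 3 genes that encode the same membrane ring subunit differed by 0.41 (Atp5g1), -0.05 (Atp5g2) and 0.30 (Atp5g3) with the term, and none of these was called.

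In 7 members (Atp5c1, Cox5a, Ndufa13, Ndufa7, Ndufb8, Ndufc2 and Ndufv3) the call of a higher luminal level stood in all libraries, with the term, on each side alone, and with mouse and side together. How many of all genes pass each of these fits was not counted, so the 7 describe the members only. All luminal libraries stood above all basal libraries in 4 members on the high side (Atp5c1, Ndufa13, Ndufa6 and Ndufa7), beside 8.87% of all genes, and in 13 on the low side, beside 7.79%. No member separated in the opposite direction on either side, beside 10.6% and 11.3% of all genes. Of the 5 members called lower in luminal cells over all libraries, Atp5g2 (-0.69, adjusted p = 0.0453), Cox6c (-0.49, adjusted p = 0.0439) and Ndufa5 (-0.41, adjusted p = 0.0166) were not called with the term. For Cox6c the difference with the term was -0.00, and for Atp5g2 -0.05, and both turned positive within each side.

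The subunits encoded in mitochondrial DNA went the other way. Of 13 such genes 12 were in the table. All 12 were called lower in luminal than in basal cells over all libraries (median -0.87), beside 27.0% of all genes. With the side as a term 11 were called lower (median -0.52), beside 25.5%. In Clec2d-high libraries 3 were called lower (median -0.38), beside 19.6%, and in Clec2d-low libraries 5 (median -0.39), beside 22.4%. With mouse and side together 9 were called lower (median -0.56), beside 22.4%. The lowest adjusted p over all libraries belonged to mt-Nd2 of complex I (-0.82, adjusted p = 6.88e-07), mt-Atp8 of complex V (-1.12, adjusted p = 5.24e-06) and mt-Nd1 of complex I (-0.92, adjusted p = 4.07e-05), and these were the 3 called on the high side.

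Within each library, the summed level of the 12 mitochondrially encoded genes was divided by that of the 79 nuclear members, which removes the depth of the library. The ratio ranged from 0.583 to 0.999 (median 0.771) in 15 luminal and from 1.15 to 2.39 (median 1.26) in 15 basal libraries, with no overlap. It ranged from 0.828 to 0.999 in luminal and from 1.15 to 2.39 in basal Clec2d-high libraries, and from 0.583 to 0.929 and from 1.16 to 1.69 on the low side. The lineages were thus separate on both sides of the split, and the ratio was higher in the basal library in 13 of the 13 mice with both lineages. The share of the nuclear members, in contrast, was higher in the luminal library in 7 of these 13 mice, of which 10 had their libraries on opposite sides. Endothelial and fibroblast markers were also higher in basal libraries, and their part in the ratio was not tested.

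**Figure D4:**
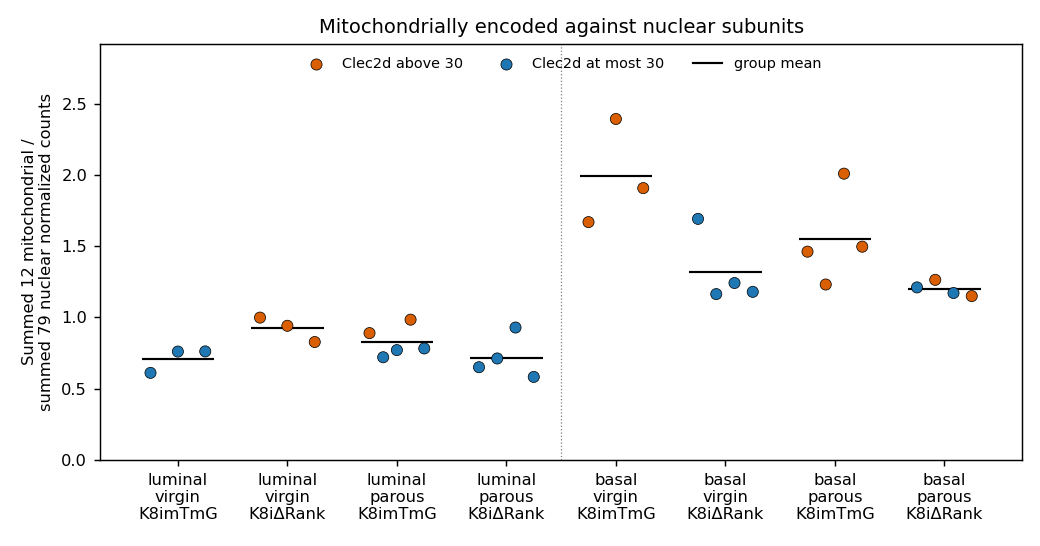
Ratio of the summed normalized counts of 12 mitochondrially encoded subunits to those of the 79 nuclear-encoded members (y axis) in the 8 groups (x axis), each point a library coloured by Clec2d side, with a line at the group mean. Every luminal library lies at or below 0.999 and every basal library at or above 1.15.

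Other genes of the pathway gave calls in both directions with the side as a term, and their counts stand beside 55.7% of all genes called over all libraries and 51.8% with the term. Of 43 assembly factors in the table, 7 were higher and 4 lower in luminal cells over all libraries, and 6 and 2 with the side as a term, led by Pet100 (0.91), an assembly factor of complex IV, Ndufaf4 (-0.50) of complex I and Cox10 (-0.47), which makes the heme of complex IV. Of 16 genes of the TCA cycle and pyruvate dehydrogenase, 5 were higher and 2 lower, and 5 and 1 with the term, among them Dlat (0.33), a subunit of pyruvate dehydrogenase. Among 14 regulators of mitochondrial biogenesis, Gabpb1 was higher (0.57) over all libraries, and with the term Gabpb1 was higher (0.58) and the coactivator Pprc1 lower (-0.60). Of 12 carriers around the chain, 4 were higher and 2 lower in both fits, with differences over all libraries of -1.14 for Slc25a4, an ADP/ATP exchanger, 0.85 for Coq7, which acts in ubiquinone synthesis, and 0.97 for Etfb, which brings electrons from fatty acid oxidation. Of 16 glycolytic genes, 7 were higher and 2 lower over all libraries, led by Aldoc (2.70), Pfkp (-1.74) and Ldhb (-1.72). These encode an aldolase, a phosphofructokinase and a subunit of lactate dehydrogenase, and each of the 3 differences was larger in size than that of any nuclear subunit.

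The comparison of genotypes asks whether deletion of Rank in luminal cells moves these subunits. In virgin mice it coincides with the split in both lineages, so genotype and Clec2d side cannot be told apart there. In luminal cells of virgin mice, K8iΔRank libraries were all Clec2d-high and K8imTmG libraries all Clec2d-low, and 3 of 78 members were called higher in K8iΔRank and 0 lower, beside 0.984% of all genes tested (0.626% higher and 0.358% lower). The members' median was 0.44. Ndufb4, chosen as a gene of the split, measured 273, 331 and 159 in K8iΔRank and 78.2, 62.4 and 53.7 in K8imTmG libraries. The groups did not overlap, and the difference was 1.91 (SE 0.31, limma adjusted p = 0.0335). Cox7b of complex IV (1.35) and Uqcrb of complex III (1.30) were called with adjusted p = 0.0424 each. In the same comparison 4 of 7 basal and 2 of 3 fibroblast markers passed the filter on low values. All of these were positive (medians 1.17 and 1.96). Markers near the floor can pass through the group where they are higher, so these signs are not read as a result. Of endothelial markers 1 of 2 tested was positive (median -0.00), and of luminal markers 2 of 9 (median -0.71). The part of all these markers in the values above was not tested. The count of members called was 0 without K8iΔRank replicate 821 or 822 or without K8imTmG replicate 533. It was 1 without K8iΔRank replicate 825 and 9 without K8imTmG replicate 531.

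In basal cells of virgin mice the sides were exchanged, with K8iΔRank libraries low and K8imTmG libraries high, and the direction was exchanged as well. There 26 of 79 members were lower and 1 higher in K8iΔRank, beside 8.99% of all genes (4.27% higher and 4.72% lower), with a median of -0.62. Ndufb4, chosen as a gene of the split, measured 30.01, 63.9, 75.2 and 46.2 in K8iΔRank and 270, 347 and 353 in K8imTmG basal libraries. The difference was -2.64 (SE 0.32, limma adjusted p = 0.00585). Atp5md of complex V (-1.85) and Cox6c of complex IV (-1.56) had the same adjusted p. Uqcrc1 was the member that was higher, with 115, 101, 111 and 126 in K8iΔRank and 64.6, 33.1 and 54.3 in K8imTmG libraries (1.19, adjusted p = 0.0284). By complex, 10 of 37, 0 of 3, 3 of 9, 8 of 13 and 5 of 17 members of complexes I to V were lower. Summed endothelial markers ranged from 166 to 624 in these K8iΔRank and from 130 to 267 in the K8imTmG basal libraries, and their part in these values was not tested. Without K8iΔRank replicate 825, or K8imTmG replicate 531, 538 or 568, the count of members called was 14, 16, 16 and 11.

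In parous mice 1 group of each comparison held libraries of both sides: luminal K8imTmG (against all-low K8iΔRank) and basal K8iΔRank (against all-high K8imTmG). The genotypes also differed there in lactation history, and its part was not tested. In luminal cells 0 of 78 members were called by limma, beside 0.0991% of all genes, and the median was -0.25. At an unadjusted limma p under 0.05 there were 9 members, and edgeR called 0 and DESeq2 6, all lower. No share of all genes is given for these last counts, so they describe the members only. Among Clec2d-low libraries (4 against 3) the median was 0.05 and 0 were called (9 at an unadjusted p under 0.05), beside 0.416% of all genes. In basal cells 1 of 79 was called, Atp5l of complex V, beside 0.906% of all genes (0.312% higher and 0.595% lower), and the median was -0.63. Atp5l measured 425, 524, 347 and 476 in K8iΔRank and 1440, 901, 1505 and 660 in K8imTmG libraries, which did not overlap (-1.28, SE 0.27, adjusted p = 0.0495). That count was 0 without K8imTmG replicate 532, 534 or 557 or without K8iΔRank replicate 787, 798 or 830, and 31 without K8iΔRank replicate 794, a Clec2d-high library. Among Clec2d-high libraries (2 against 4) the median was -0.22 and 0 members were called (12 at an unadjusted p under 0.05), beside 0% of all genes.

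**Figure D5:**
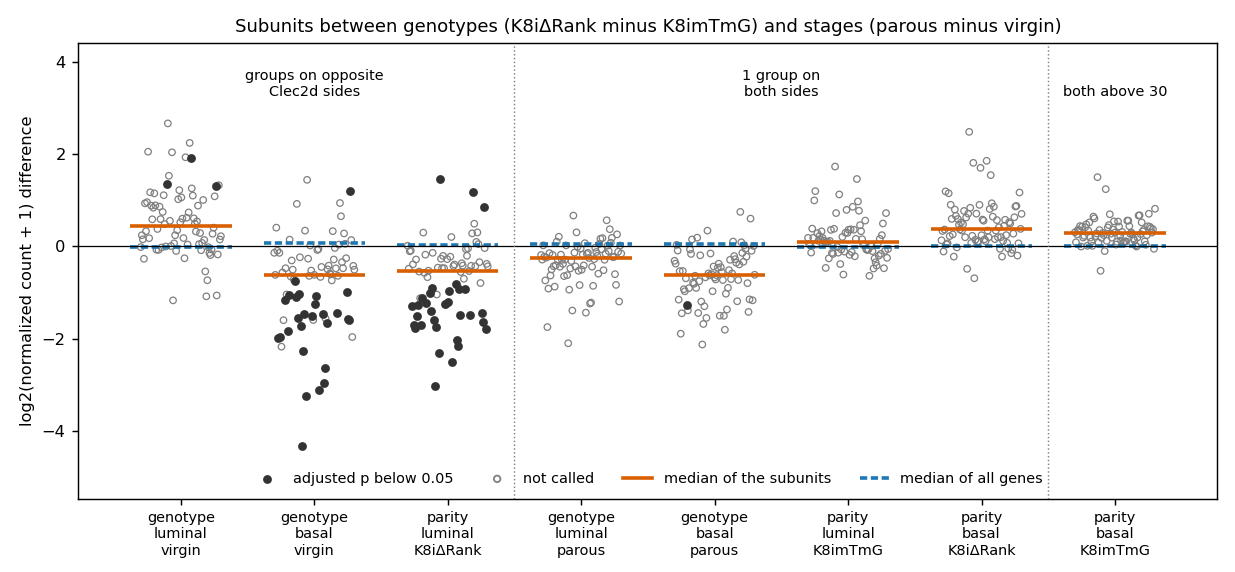
Log2 difference (y axis) of each member in the 4 genotype comparisons (K8iΔRank minus K8imTmG) and the 4 parity comparisons (parous minus virgin), set along the x axis, filled where the limma adjusted p was below 0.05, with medians of the members (orange) and of all genes (dashed). The members' medians lie between -0.63 and 0.44, and the comparisons whose groups lie wholly on opposite Clec2d sides have medians of 0.44, -0.62 and -0.53.

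The comparison of parous with virgin mice asks whether a completed pregnancy leaves a change in these subunits. In luminal K8iΔRank cells virgin libraries were all Clec2d-high and parous libraries all Clec2d-low, so parity and side cannot be told apart, and 29 of 78 members were lower and 3 higher in parous mice, beside 16.0% of all genes (8.25% higher and 7.78% lower), with a median of -0.53. With all 15 luminal libraries in the fit 8 were called, 7 lower and 1 higher, and the share of all genes is not given for that fit. Of 7 basal markers 4 passed the filter on low values, and 0 of these were positive (median -1.42). Of fibroblast markers 0 of 2 tested were positive (median -0.84), and of endothelial markers 1 of 1 (0.22). Such markers can pass the filter through the group where they are higher, so these signs are not read as a result. The part of these markers in the members' values was not tested. Ndufb3 of complex I (-2.02, limma adjusted p = 0.00158), Atp5g3 of complex V (-1.77, adjusted p = 0.00178) and Ndufb4 (-2.16, adjusted p = 0.00178) fell. Ndufb4, counted among the 29, had been chosen as a gene of the split, so its p is not read as a test of parity. Ndufa10 measured 177, 176, 197 and 271 in parous and 64.4, 88.5 and 68.7 in virgin libraries and rose by 1.45 (SE 0.22, adjusted p = 0.00363). Ndufs8, an iron-sulphur subunit of complex I (1.17, adjusted p = 0.00773), and Uqcrc1 (0.85, adjusted p = 0.0362) rose too.

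In luminal K8imTmG cells 0 of 78 members were called (3 at an unadjusted p under 0.05, 0 by edgeR and 0 by DESeq2), beside 2.20% of all genes, with a median of 0.09. Among Clec2d-low libraries (3 parous against 3 virgin) Ndufb11 of complex I was lower in parous mice (-0.62, adjusted p = 0.0497), the only call of 78 members, beside 12.8% of all genes (6.03% higher and 6.80% lower), and the median was -0.17 with 23 of 78 differences positive.

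Basal K8imTmG cells gave a comparison with all libraries on the high side. Of 79 members 74 were higher in parous (n = 4) than in virgin mice (n = 3), with a median of 0.29. Of these members 0 were called by limma (16 at an unadjusted p under 0.05), by edgeR (16) or by DESeq2 (9), beside 0% of all genes. The lowest p belonged to Uqcr11 of complex III, with 0.70 (SE 0.20, limma adjusted p = 0.366). Markers of other cells stood lower in the parous libraries, with 0 of 3 endothelial (median -1.67), 0 of 3 fibroblast (median -0.81) and 0 of 8 luminal markers (median -0.74) positive, and their part in these values was not tested. By complex the medians were 0.27, 0.10, 0.42, 0.24 and 0.30 for complexes I to V. In basal K8iΔRank cells 0 of 79 were called (12 at an unadjusted p under 0.05, 0 by edgeR and 0 by DESeq2), beside 0% of all genes. There 68 differences were positive with a median of 0.36, and among Clec2d-low libraries (2 against 4) 35 of 78 were positive with a median of -0.01 and 0 were called (3 at an unadjusted p under 0.05).

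Whether the genotype difference itself changed with parity was tested as an interaction in each lineage. In luminal cells 19 of 78 members were called, 3 positive and 16 negative, beside 12.9% of all genes (7.17% positive and 5.75% negative), with a median of -0.65. A negative value means that the difference between K8iΔRank and K8imTmG was lower in parous than in virgin mice. Parous mice of the genotypes also differed in lactation history, and its part was not tested. Ndufc2 (-1.47, limma adjusted p = 0.0116), Ndufb3 (-3.48, adjusted p = 0.017) and Cox7c (-4.76, adjusted p = 0.0172) had the lowest adjusted p of the negative members, and Ndufs8 (1.65, adjusted p = 0.0172), Uqcrc1 (1.32, adjusted p = 0.0317) and Ndufa10 (1.84, adjusted p = 0.0451) were the positive ones. With the Clec2d side as a term 0 members were called (11 at an unadjusted p under 0.05), beside 0.0487% of all genes, and the median was 0.27. That term was estimated from the only mixed luminal group, parous K8imTmG (2 high, 3 low). The other luminal groups lay wholly on 1 side, so this fit cannot decide whether the difference between genotypes changed with parity. The count without the term also rested on single libraries, with 2 calls without virgin K8imTmG replicate 538, 5 without parous K8iΔRank replicate 794 and 6 without virgin K8iΔRank replicate 821. It was 9 without parous K8iΔRank replicate 830, 11 without virgin K8imTmG replicate 533 and 12 without virgin K8iΔRank replicate 825. In basal cells 0 of 79 members were called by limma (0 at an unadjusted p under 0.05), 0 by edgeR (1) and 0 by DESeq2 (0), beside 0% of all genes, with a median of 0.11, and of -0.35 with the side as a term. There the term rested on the mixed parous K8iΔRank group alone.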

How the data were processed

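Sorted luminal and basal cells of 17 mice gave 30 libraries made with an oligo-dT primed, stranded 3′ kit with unique molecular identifiers. The authors trimmed reads with BBDuk, aligned them to GRCm39 with Bowtie2, removed duplicate molecules with UMI-tools, ran the Nextpresso pipeline with GENCODE annotation, and deposited counts divided by DESeq2 size factors, a signal per gene. Whole molecules were recovered from these values (100% within 0.01 of a whole number), and 1 molecule was worth 0.381 to 5.43 normalized counts. Members, gene lists, the split at a Clec2d level of 30 and tests were chosen with earlier results of these data known.

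Differences were tested with limma 3.58.1 (trend) in R 4.3.3 on log2(normalized count + 1), which understates the change of low genes. Genes above 10 in at least 25% of the libraries of a fit entered, and p-values were adjusted over all genes tested (Benjamini-Hochberg, 0.05). Shares of all genes beside counts of calls are those of limma at this threshold, also where unadjusted, edgeR or DESeq2 counts stand near. Genotype and parity were compared within lineage with 2 groups per fit, the lineages as the mean of 4 luminal against 4 basal groups, and the interaction in the 15 libraries of a lineage. Count tests on the recovered molecules (edgeR 4.0.16, DESeq2 1.42.0), pseudocounts of 0.5 and 4, no filter, a mean of at least 50, quantile normalization, the mouse as a block and leaving out each library were alternatives. The mouse with both lineages was the pair: the deviations of its 2 libraries from their group means correlated at -0.238 to 0.341 (median 0.0897, 6 of 13 mice over 0.1).

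Members named were those with the lowest adjusted p in each comparison (up to 8 a direction between lineages, up to 3 elsewhere). Defining subunits of each complex, tissue isoforms, Ndufb4 as a gene of the Clec2d split, and the highest and lowest by mean level were named too. Other members, named to spell out a count or as an extreme, were chosen after their values were seen. Transcript and coding lengths, coordinates and promoter sequences came from GENCODE vM39 on GRCm39, for 77 of 79 members. The fits were also run on simulated counts that held no Clec2d split and no mouse effect, so that run cannot show how they behave with the split.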

Additional observations from a re-analysis of the deposited data

Results flagged for a closer look

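In the 5 groups of 4 or 5 libraries, 17 items gave 85 checks, of which 4 found a library whose gap to its nearest neighbour exceeded Dixon's 95% value, where chance gives about 1 in 20. Ndufv3 stood at 111 in luminal parous K8imTmG replicate 494, against 70.3 in the next library. Ndufa10 stood at 123 in basal parous K8imTmG replicate 534, against 67.7. Sdha stood at 404 in luminal parous K8iΔRank replicate 830, against 348. Cox6b2 stood at 26.2 in basal parous K8imTmG replicate 558, against 11.9.

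The difference between genotypes in luminal cells differed between virgin and parous mice, by the interaction term, in 19 of 78 members, beside 12.9% of all genes, with a median of -0.65. With the Clec2d side as a term 0 were called and the median was 0.27, but that term rested on the mixed parous K8imTmG group alone. The differences of differences were 1.65 for Ndufs8, 1.32 for Uqcrc1, 1.84 for Ndufa10, -1.47 for Ndufc2, -3.48 for Ndufb3 and -4.76 for Cox7c (log2, limma). In these cells virgin K8iΔRank and parous K8imTmG groups held the Clec2d-high libraries (3 of 3 and 2 of 5), and the others held none.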

How the results depend on the processing

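Counts are of members called. Shares of all genes are given above for the main fits and for those by Clec2d side only, so the other counts describe the members only. Between the lineages (27 over all libraries) the count was 44 with the Clec2d side as a term, 46 in Clec2d-low libraries, 26 with the mouse as a replicate block, 23 by edgeR, 28 by DESeq2, and 21 to 30 leaving out a library. Within Clec2d-high and Clec2d-low libraries the difference turned positive for Cox6c (0.020 and 0.096) and Atp5g2 (0.038 and 0.26). Genotype in virgin luminal cells (3) gave 0 with no filter, 9 at a mean of at least 50, 22 by DESeq2, 0 with all 15 libraries in the fit and 0 to 9 leaving out a library. In virgin basal cells (27) leaving out a library gave 11 to 29. In parous luminal cells (0) DESeq2 gave 6, and leaving out a library 0. In parous basal cells (1) the count was 0 with a pseudocount of 0.5, 2 with 4, 0 with no filter, 5 at a mean of at least 50, 0 with quantile normalization, 11 by DESeq2, 2 with all 15 libraries, 0 in Clec2d-high libraries and 0 to 31 leaving out a library. Parity in luminal K8imTmG cells (0) gave 1 in Clec2d-low libraries, and in luminal K8iΔRank cells (32) 8 with all 15 libraries and 28 to 37 leaving out a library. The luminal interaction (19) gave 30 by DESeq2, 0 with the side as a term and 2 to 25 leaving out a library, and with the term it turned for Ndufa10 (-0.59), Atp5g2 (0.78) and Ndufb4 (0.70). Both basal parity comparisons and the basal interaction gave 0 in each alternative run. Beyond the side and the number of libraries in a fit, the cause of these changes was not tested.

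The libraries differed in depth up to the range of 340445 to 3130419 molecules, which limits low members such as Cox6b2. Where groups lay wholly on opposite Clec2d sides, no within-side value exists. How reads were divided between members and near-identical pseudogenes was not tested.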

Other observations

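Within the 16 Clec2d-low libraries some members still varied widely. Cox7c ranged from 4.62 to 277, and its lowest values were 4.62 and 24.7 in basal virgin K8iΔRank replicates 820 and 825, 41.9 in luminal virgin K8imTmG replicate 538 and 55.5 in luminal parous K8iΔRank replicate 794. These libraries come from different lineages, stages and genotypes. The members whose levels were most like Cox7c over these 16 libraries were Ndufa4 (Spearman's rho 0.94), Ndufb3 (0.92), Uqcrfs1 (0.91) and Atp5g3 (0.88). Ndufa5 (-0.78) and Atp5l (-0.68) ran opposite, and Atp5l stood at 718, 828, 880 and 602 in the 4 libraries with the lowest Cox7c. The same 16 libraries stand behind each of these values, and their depth ranged from 1200781 to 3130419 molecules, so the values are a description. A log2 range of over 2 was found for 6 members in luminal Clec2d-low, 9 in basal Clec2d-low, 3 in luminal Clec2d-high and 4 in basal Clec2d-high libraries, where the median range over the members was 0.92, 0.84, 0.65 and 0.96.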
